A study of Mus musculus with 3 samples.

Results

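The 7 genes described here, Hmgcs1, Idi1, Fdft1, Sqle, Msmo1, Dhcr7 and Srebf2, belong to the cholesterol synthesis pathway and its control. They were taken by name from the 28676 genes of the deposited table, and all 7 were found in it. The cells came from the medial vestibular nucleus (MVN), a brainstem nucleus that receives input from the inner ear, of C57BL/6 mice. They were collected 1 day after surgery. The age given, postnatal day 20, is the age at surgery in the study's methods. ULI was the ipsilateral MVN and ULC the contralateral MVN of 11 pooled mice after unilateral labyrinthectomy (UL), the destruction of the vestibular organ of 1 ear, which was the right ear per the study's methods. The control was the MVN of 10 pooled mice. The records name labyrinthectomy in the treatment field of all 3 samples, whereas the methods describe only an opened tympanic bulla for the control group, so the control is called so from its source name and these methods. Each condition was 1 library. ULI and ULC came from the same mice, and the mice of a pool cannot be told apart. Levels were summed over cells in 6 cell classes: oligodendrocyte precursors, newly formed oligodendrocytes, mature oligodendrocytes, astrocytes, microglia and vascular cells (endothelial cells, pericytes with smooth muscle cells, and fibroblasts).

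Cholesterol does not cross from blood into brain in useful amounts, so brain cells make their own. Oligodendrocytes build myelin, a membrane rich in cholesterol, and astrocytes are known to make cholesterol and pass it on with apolipoprotein E. Synthesis starts from acetyl-CoA: Hmgcs1 makes HMG-CoA, from which mevalonate is formed, and Idi1 isomerizes the isoprenoid unit that later steps join. Fdft1 joins a pair of farnesyl units into squalene, and Sqle oxidizes squalene before it is closed into a sterol. Msmo1 removes methyl groups from the sterol ring, and Dhcr7 carries out the last reduction of one branch of the pathway. Srebf2 encodes SREBP2, the transcription factor that is cut free when membrane sterol is low and that switches on the enzymes and itself.

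The ULI, ULC and control libraries held 4813, 4544 and 4607 cells with at least 200 genes, and medians of 2100, 931 and 3177 unique molecular identifiers (UMIs, each standing for 1 captured RNA molecule) per cell, so ULC cells were the shallowest. No cell column was identical between libraries. Clusters were named from marker lists, and the sterol genes were left out of the genes used for clustering. The summed markers of a class stood at 11550 to 13510 CPM (UMIs of a gene scaled to a common total per class and library) in precursors, 12860 to 14700 in newly formed cells, 46210 to 47840 in mature cells, 52740 to 59270 in astrocytes and 22210 to 32260 in microglia over the 3 libraries. Endothelial markers summed to 6232, 12480 and 18190 CPM in the vascular cells of ULI, ULC and control. The classes were not made of the same clusters in each library. Of the ULC precursors, 257 of 331 were in cluster 20, which held 2 ULI and 3 control cells, and newly formed markers summed to 9709 CPM in ULC precursors, against 3282 CPM in control precursors. Newly formed cells also held mature markers, which summed to 8818 and 12400 CPM in ULI and ULC, against 16130 CPM in the control. Most ULI, ULC and control microglia were in clusters 7, 14 and 0. Most mature cells of ULI were in clusters 9 and 1, of ULC in clusters 12 and 18, and of the control in clusters 1, 15 and 10. Newly formed cells numbered 914 in ULI and 823 in ULC, against 62 in the control. Choroid plexus markers, the mark of another tissue beside the nucleus, summed to 420 and 5535 CPM in astrocytes of ULI and ULC, against 66.1 CPM in the control, and ULC was the highest library in each of the 6 classes. The median share of mitochondrial UMIs in astrocytes was 23.86% in ULI and 25.12% in ULC, against 17.49% in the control. What part these differences have in the results below was not tested.

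Promoter windows from RefSeq (GRCm38.p6, 250 bases before to 50 after a transcript start) were found for 5 of the 7 genes: Hmgcs1, Idi1, Msmo1, Dhcr7 and Srebf2. They were searched on both strands for the sterol regulatory element TCACNCCAC, to which SREBP binds, for the NF-Y box CCAAT and for the Sp1 box GGGCGG, whose factors are known to act beside SREBP. Of 32851 promoter windows, 1.24% held the first of these motifs, 37.4% the NF-Y box and 35.7% the Sp1 box. The windows of Hmgcs1 (chr13:119690101-119690400, plus strand), Msmo1 (chr8:64733529-64733828, minus strand) and Srebf2 (chr15:82147019-82147318, plus strand) are shown because, as given below, Hmgcs1 had the largest and Srebf2 the smallest difference in mature oligodendrocytes, and Msmo1 was the member higher in astrocytes. They run 5′ to 3′ along the gene, and capitals mark the matches, which read ATTGG or CCGCCC where a box lies on the other strand.
Hmgcs1: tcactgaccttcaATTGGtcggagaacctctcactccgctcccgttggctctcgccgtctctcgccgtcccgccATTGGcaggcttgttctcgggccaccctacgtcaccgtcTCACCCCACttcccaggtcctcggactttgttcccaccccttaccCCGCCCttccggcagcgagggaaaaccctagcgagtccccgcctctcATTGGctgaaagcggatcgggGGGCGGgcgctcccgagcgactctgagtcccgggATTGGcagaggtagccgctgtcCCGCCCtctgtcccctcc
Msmo1: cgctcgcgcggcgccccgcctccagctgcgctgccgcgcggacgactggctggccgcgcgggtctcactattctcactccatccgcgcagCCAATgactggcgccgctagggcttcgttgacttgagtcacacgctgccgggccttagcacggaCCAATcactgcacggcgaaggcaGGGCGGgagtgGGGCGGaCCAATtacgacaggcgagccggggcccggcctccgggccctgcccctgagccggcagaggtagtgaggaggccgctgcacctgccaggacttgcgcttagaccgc
Srebf2: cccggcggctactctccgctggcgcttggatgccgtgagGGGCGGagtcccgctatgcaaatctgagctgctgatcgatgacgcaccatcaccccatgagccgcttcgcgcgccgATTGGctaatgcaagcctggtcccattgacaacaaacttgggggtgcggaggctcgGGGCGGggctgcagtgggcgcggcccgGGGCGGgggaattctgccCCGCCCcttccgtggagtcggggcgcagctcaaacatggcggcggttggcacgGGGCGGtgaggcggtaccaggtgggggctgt
The Hmgcs1 window held 1 TCACNCCAC, 4 CCAAT and 3 GGGCGG matches. The Msmo1 window held 3 CCAAT and 2 GGGCGG matches, and the Srebf2 window 1 CCAAT and 5 GGGCGG matches, with 0 matches to TCACNCCAC in either. No matches overlapped each other in these windows. Only exact matches were counted, so variants of a motif are not marked, and 0 matches do not mean that such a site is absent. A match describes letters only and is no sign of binding.

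Hmgcs1 (chr13:119690379-119708260, plus strand), the enzyme before the committed step, had its highest level in mature oligodendrocytes, at 3443 CPM in ULI, 3137 in ULC and 5684 in the control. Newly formed cells had 2401, 2356 and 2468 CPM in ULI, ULC and control, and precursors 462, 1081 and 489 CPM. Astrocytes had 330, 331 and 398 CPM. The order of the classes was thus the same in the 3 libraries down to astrocytes, and the ranges of neighbouring classes did not overlap. Vascular cells followed with 111, 133 and 220 CPM and microglia with 71.7, 67.5 and 133 CPM, and the ranges of these lowest classes overlapped. The means were 4088 ± 1391 CPM in mature, 2408 ± 56.4 CPM in newly formed and 677 ± 350 CPM in precursor cells (SD, n = 3 libraries). Counts were large in mature cells, where 12681, 6154 and 85754 UMIs of Hmgcs1 stood behind the levels of ULI, ULC and control, and small in ULC microglia, with 76 UMIs.

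**Figure D1:**
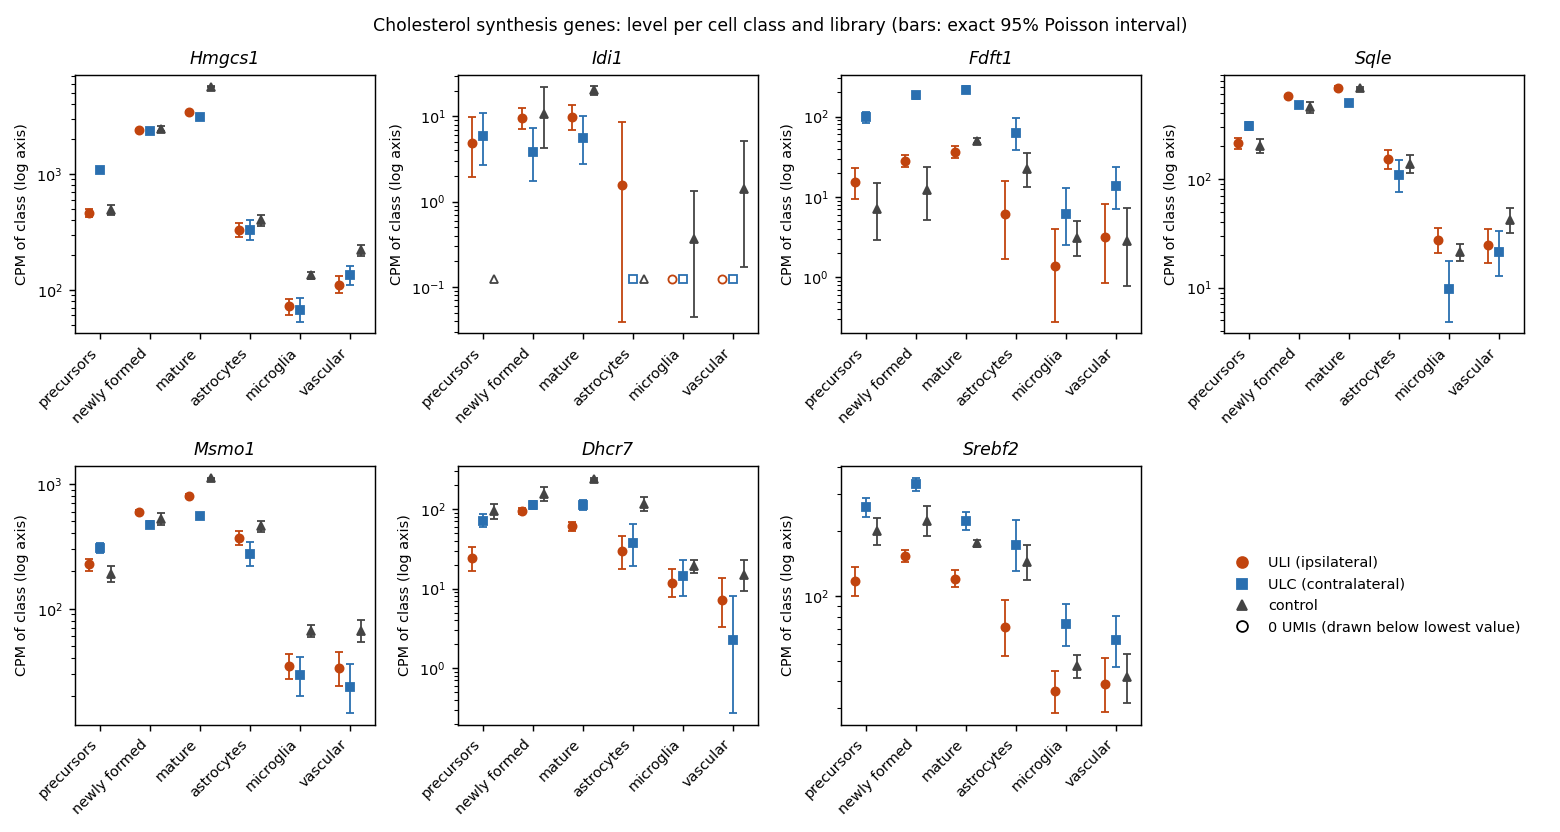
Level of each gene (CPM of the summed UMIs of a class, log axis) in 6 cell classes, with ULI as circles, ULC as squares and the control as triangles, and exact 95% Poisson intervals as bars; open symbols mark 0 UMIs. Except for the sparse Idi1, levels were lowest in microglia and vascular cells. Hmgcs1 had 3137 to 5684 CPM in mature cells and 67.5 to 133 CPM in microglia, and Srebf2 had 121 to 224 CPM and 36.1 to 73.7 CPM in the same classes.

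Idi1 (chr13:8885501-8892451, plus strand) was sparse, with 438 UMIs over all 18 class and library sums. It had 9.77, 5.61 and 20.1 CPM in mature cells of ULI, ULC and control, and 9.61, 3.84 and 10.6 CPM in newly formed cells. Precursors had 4.82 and 5.82 CPM in ULI and ULC, and 0 UMIs in the control, where the exact 95% Poisson interval reaches 3.79 CPM. In astrocytes, microglia and vascular cells Idi1 had 0 to 2 UMIs per library. By the same interval, the 0 UMIs of control astrocytes allow up to 4.60 CPM and those of ULI microglia up to 1.69 CPM, counting error only. The order of these classes was not detectable at this depth.

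Fdft1 (chr14:63145150-63179578, minus strand), the enzyme that commits the pathway to sterols, had 36.7, 216 and 50.2 CPM in mature cells of ULI, ULC and control. Newly formed cells had 28.1, 183 and 12.1 CPM, precursors 15.2, 97.7 and 7.19 CPM and astrocytes 6.22, 61.95 and 22.5 CPM. ULC was thus the highest library in each of these classes, and the ranges of neighbouring classes overlapped over the 3 libraries. In microglia (1.37, 6.21 and 3.13 CPM) and vascular cells (3.17, 13.5 and 2.84 CPM) the counts were 3 to 17 UMIs.

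Sqle (chr15:59315077-59331192, plus strand), squalene epoxidase and a rate-limiting enzyme, had 684, 495 and 690 CPM in mature cells and 574, 474 and 454 CPM in newly formed cells of ULI, ULC and control, and these ranges overlapped. Precursors followed with 212, 307 and 201 CPM and astrocytes with 151, 108 and 137 CPM, each below the class before it without overlap. Vascular cells had 24.6, 21.4 and 41.8 CPM and microglia 27.4, 9.76 and 21.2 CPM, and these were the lowest classes in each library.

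Msmo1 (chr8:64718139-64733792, minus strand), methylsterol monooxygenase, averaged 368 ± 91.0 CPM in astrocytes and 241 ± 59.4 CPM in precursors (SD, n = 3 libraries), with overlapping ranges. It had 796, 554 and 1104 CPM in mature cells, 598, 471 and 523 CPM in newly formed cells and 370, 276 and 458 CPM in astrocytes of ULI, ULC and control. Precursors had 226, 306 and 190 CPM, so that astrocytes were above precursors in ULI and in the control and below them in ULC. Microglia had 34.7, 29.3 and 66.4 CPM and vascular cells 33.3, 23.7 and 66.7 CPM.

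Dhcr7 (chr7:143823145-143848410, plus strand), 7-dehydrocholesterol reductase, had 60.8, 113 and 241 CPM in mature cells of ULI, ULC and control. Newly formed cells had 95.4, 113 and 156 CPM, precursors 24.1, 71.8 and 94.5 CPM and astrocytes 29.6, 37.2 and 116 CPM. In each of these 4 classes ULI was lowest and the control highest. Newly formed cells were above mature cells in ULI, and mature cells above newly formed cells in the control. Microglia had 11.9, 14.2 and 19.0 CPM and vascular cells 7.13, 2.26 and 14.9 CPM, the last 3 levels resting on 9, 2 and 21 UMIs.

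Srebf2 (chr15:82147181-82205379, plus strand), the transcription factor, was measured in every class and library, with at least 46 UMIs. It had 154, 332 and 224 CPM in newly formed cells of ULI, ULC and control, 117, 259 and 200 CPM in precursors, 121, 224 and 176 CPM in mature cells and 71.6, 174 and 143 CPM in astrocytes. Neighbouring classes overlapped throughout, and in each of the 6 classes ULI was lowest and ULC highest. Microglia had 36.1, 73.7 and 47.2 CPM and vascular cells 38.8, 62.1 and 41.8 CPM. Its gene also hosts the microRNA gene Mir33, which is known to act against cholesterol export.

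The differences between classes were tested with edgeR's quasi-likelihood test on the 18 class and library sums, with the library as a term, for each class against the mean log2 level of the other 5. The false discovery rate (FDR) was taken over all 12851 genes tested, and calls are at FDR under 0.05. The 3 libraries were the replicates. They differ in condition, and ULI and ULC share mice. With the library as a term, the p-values measure only how far the differences between classes varied over these libraries. Of 42 gene and class pairs, 15 were higher and 13 lower. The 6 contrasts of a gene are not independent, since a high level in some classes lowers the differences of the others.

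In mature oligodendrocytes all 7 genes were higher, beside 25.9% of all genes called higher in that class. Hmgcs1 was higher by 3.94 ± 0.22 on the log2 scale (SE, 3 libraries), or 15.4-fold, with an edgeR FDR of 3.21e-12. The log2 differences were 3.78 ± 0.56 for Idi1, 3.19 ± 0.19 for Sqle, 2.99 ± 0.26 for Fdft1, 2.92 ± 0.21 for Msmo1 and 2.39 ± 0.22 for Dhcr7. Srebf2 had the smallest, 1.25 ± 0.14 (edgeR FDR 2.17e-07). These 7 calls held in all the alternatives run. In newly formed cells all 7 were higher too, by 1.25 for Srebf2 to 2.60 for Idi1, beside 23.8% of all genes. Without ULC the call of Fdft1 was lost in newly formed cells (1.22, edgeR FDR 0.0547), and without ULI that of Idi1 (2.82, edgeR FDR 0.0874).

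In microglia all 7 genes were lower, by 1.42 for Srebf2 to 3.47 for Idi1 on the log2 scale, beside 29.5% of all genes called lower there. The call of Idi1, which had 2 UMIs in microglia of all libraries together, was lost without ULI and without the control (log2 differences of -2.35 and -4.87, edgeR FDR 1.0 in both). In vascular cells 6 of 7 were lower, by 1.66 ± 0.18 for Srebf2 to 3.04 ± 0.37 for Dhcr7, beside 20.2% of all genes. Vascular cells also held astrocyte markers, at 2947 to 4398 CPM summed, and mature markers, at 3633 to 5676 CPM. Idi1 was the exception, with -2.11 ± 1.22 and an edgeR FDR of 0.17.

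Astrocytes and precursors lay between these groups. In astrocytes Msmo1 was higher by 1.18 ± 0.24 on the log2 scale (edgeR FDR 0.000418), beside 19.8% of all genes called higher and 17.2% called lower, and no other member passed the test. Hmgcs1 had -0.65 ± 0.28 in astrocytes (edgeR FDR 0.0777) and Dhcr7 0.64 ± 0.29 (edgeR FDR 0.0902). Other settings added calls in astrocytes. Dhcr7 was higher in 6 of them (0.69 to 0.87, edgeR FDR 0.017 to 0.0447), and Srebf2 in 3 (0.47 to 0.54, adjusted p of 0.00461 with DESeq2 and 0.018 and 0.0204 with edgeR). Fdft1 and Sqle were higher at resolution 2.0 (0.94 and 0.57, edgeR FDR 0.0478 and 0.0391), and Hmgcs1 was lower with no filter on low counts (-0.77, edgeR FDR 0.003). In precursors 0 members passed edgeR's test in either direction and 0 had an unadjusted p under 0.05, beside 21.2% of all genes called higher and 15.0% called lower. DESeq2 called 0 members in precursors as well, with a lowest adjusted p of 0.0692, for Srebf2 (Benjamini-Hochberg). Single libraries mattered in precursors: without ULC, Hmgcs1 was lower by 0.84 (edgeR FDR 0.0256), and without the control, Sqle was higher by 0.72 (edgeR FDR 0.0169). Without cluster 20, Hmgcs1 and Msmo1 were lower in precursors, by 0.80 and 0.72 (edgeR FDR 0.00592 and 0.0196). Hmgcs1 was also lower in precursors in 6 other settings of cell filters, doublets and clustering, with log2 differences of -0.653 to -0.74 (edgeR FDR 0.00947 to 0.0319).

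**Figure D2:**
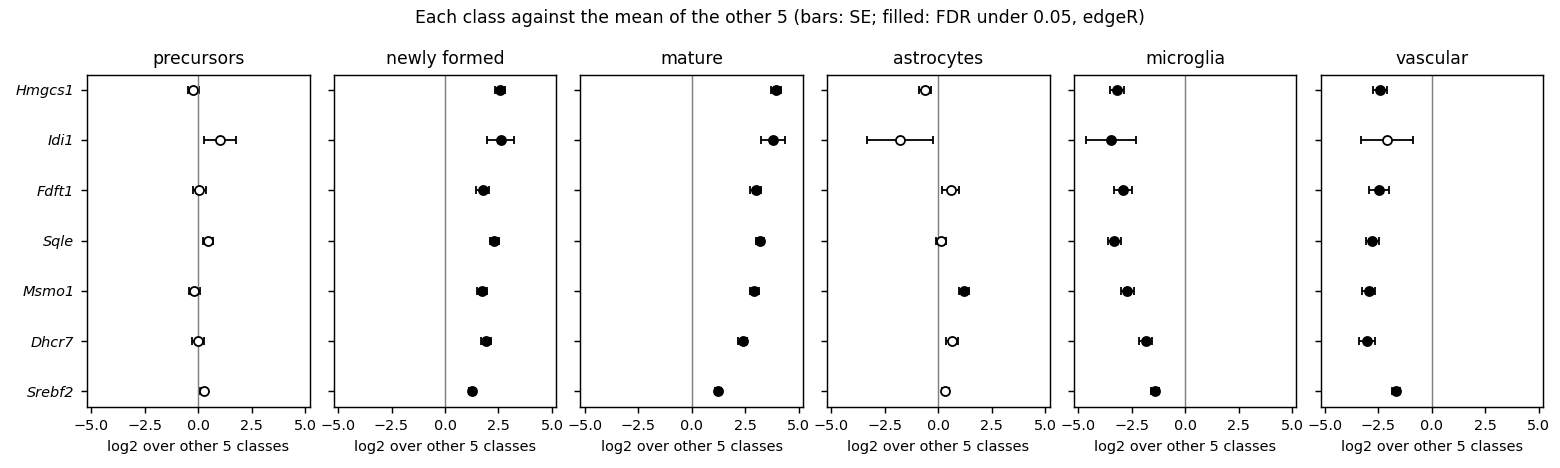
Log2 difference of each class from the mean of the other 5 (x axis) for each gene (rows), with bars of 1 SE derived from edgeR's F statistic and filled symbols for FDR under 0.05. All 7 genes were higher in newly formed and mature cells, all 7 were lower in microglia, 6 were lower in vascular cells, and 1, Msmo1, was higher in astrocytes.

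Along the oligodendrocyte lineage, 6 of 7 genes were higher in newly formed cells than in precursors, beside 14.4% of all genes. Hmgcs1 had the largest of these log2 differences, 2.33 ± 0.35 (edgeR FDR 3.96e-05), followed by Dhcr7 with 1.61 ± 0.32, Msmo1 with 1.59 ± 0.32, Sqle with 1.54 ± 0.30, Fdft1 with 1.42 ± 0.40 and Srebf2 with 0.83 ± 0.20. Idi1 had 1.34 ± 0.78 (edgeR FDR 0.219). Without ULI the calls of Dhcr7, Fdft1, Msmo1 and Srebf2 were lost (1.13, 1.30, 1.33 and 0.70, edgeR FDR 0.06 to 0.13), and without ULC those of Fdft1 and Srebf2 (1.33 and 0.64, edgeR FDR 0.139 and 0.107), while Hmgcs1 and Sqle held with each library left out. With no library term Dhcr7, Fdft1 and Srebf2 were lost (edgeR FDR 0.106, 0.38 and 0.143), and Srebf2 also with no filter on low counts, at resolution 2.0 and with mature cells of cluster 1 only (edgeR FDR 0.0583 to 0.0761). From newly formed to mature cells 3 genes were higher, beside 12.3% of all genes. These were Hmgcs1 by 1.15 ± 0.34 (edgeR FDR 0.0142), Fdft1 by 1.03 ± 0.37 (edgeR FDR 0.0428) and Msmo1 by 0.99 ± 0.32 (edgeR FDR 0.0234). Each of the 3 was lost without ULI (1.34, 1.25 and 1.15, edgeR FDR 0.0799 to 0.113), and Fdft1 and Msmo1 also without the control (0.67 and 0.70, edgeR FDR 0.0872 and 0.0562). With mature cells of cluster 1 only, Hmgcs1, Fdft1 and Msmo1 were all lost (0.80, 0.17 and 0.54, edgeR FDR 0.112, 0.851 and 0.264), and Fdft1 and Msmo1 also without cluster 12 (1.03 and 0.85, edgeR FDR 0.0579 and 0.0888) and with no library term (0.73 and 1.08, edgeR FDR 0.71 and 0.0831). Sqle had 0.73 ± 0.29 and an edgeR FDR of 0.0673. It was called higher without ULC (1.07, edgeR FDR 0.0131) and in 12 other settings (0.70 to 1.06), DESeq2 among them (adjusted p 0.027). Srebf2 had 0.001 ± 0.19 for this step.

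The low levels in microglia, vascular cells and astrocytes were set against RNA that spreads between droplets, by expressing each as a percent of the level in mature cells of the same library, beside the same percent for the 12 mature oligodendrocyte markers. In microglia Hmgcs1 stood at 2.08%, 2.15% and 2.34% of its mature level in ULI, ULC and control, and the markers had medians of 0.517%, 0.417% and 1.34% and highest values of 1.21%, 4.82% and 3.68%. Hmgcs1 was thus above the marker medians in each library and above the highest marker in ULI alone. Dhcr7 stood at 19.5%, 12.6% and 7.87% and Srebf2 at 29.9%, 32.9% and 26.9%, above the highest marker in each library. In vascular cells Hmgcs1 stood at 3.22%, 4.25% and 3.87% in ULI, ULC and control. The markers had medians of 1.11%, 1.03% and 5.13% and highest values of 57.7%, 74.2% and 39.5%. Hmgcs1 was thus above the marker median in ULI and ULC and below it in the control. With highest values so far above the medians, lying within the marker range says little here. Mog, Mobp and Cldn11 stood at 0.662%, 1.39% and 1.10% in ULI and 0.846%, 4.27% and 0.885% in ULC. In the control they stood at 5.81%, 4.96% and 4.73%, all above Hmgcs1. In astrocytes the markers had medians of 1.46%, 1.76% and 1.04% and highest values of 10.98%, 7.24% and 8.08% in ULI, ULC and control. Hmgcs1 stood at 9.58%, 10.6% and 7.0% in astrocytes, within the marker range in ULI and the control and above it in ULC. Msmo1 stood at 46.5%, 49.8% and 41.5% in astrocytes, and Sqle at 22.1%, 21.9% and 19.9%, above the highest marker in each library. How much of the low levels is spread RNA was not tested.

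**Figure D3:**
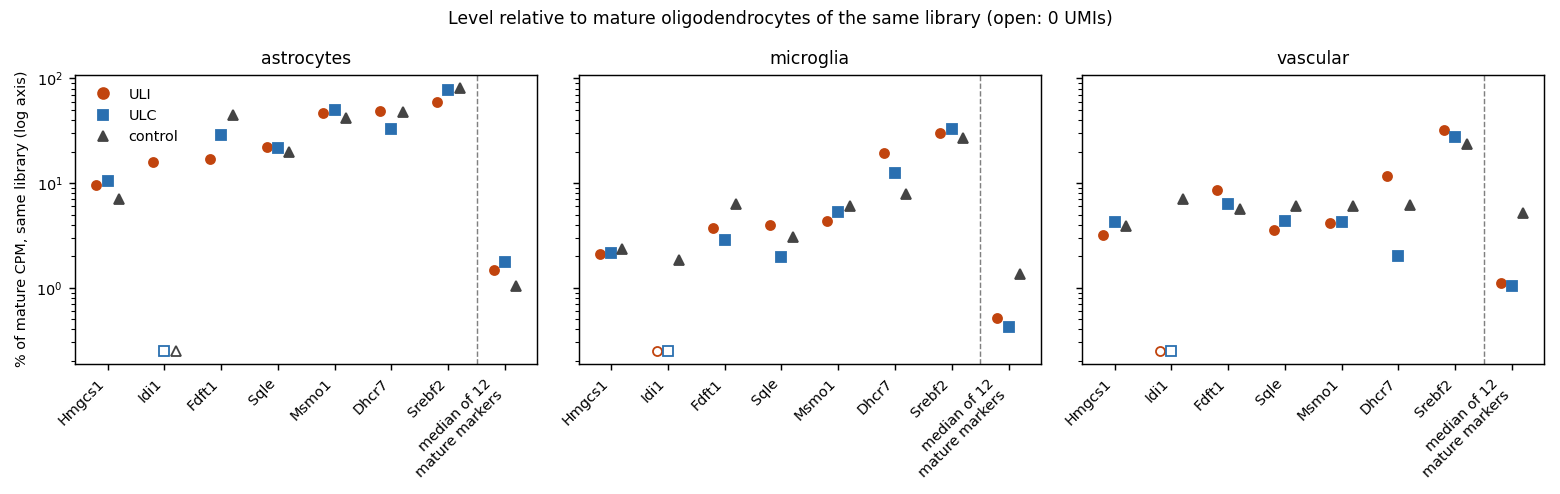
Level of each gene in astrocytes, microglia and vascular cells as a percent of its level in mature oligodendrocytes of the same library (log axis), beside the median of 12 mature markers, with ULI as circles, ULC as squares and the control as triangles. In control astrocytes Msmo1 stood at 41.5% and Dhcr7 at 48.1%, against 1.04% for the markers.

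Over the 18 sums, the 7 genes were alike in their pattern, which is a description, since the points share libraries and lineage. Pearson's r of the log2 levels, centred in each library, ranged from 0.671 for Idi1 and Srebf2 to 0.966 for Hmgcs1 and Sqle. Of 4276 genes with at least 50 CPM on average, those with the pattern most like the mean of the 7 were Cyp51 (r = 0.984), Sc5d (0.983), Abhd17b (0.982), Hsd17b7 (0.978), Plekhb1 (0.976), Nsdhl (0.972), Lss (0.971), Sox2ot (0.971), Nipa1 (0.970) and Tmem9b (0.969). Cyp51, Sc5d, Hsd17b7, Nsdhl and Lss, 5 of these 10 genes, are other enzymes of sterol synthesis, and the other 5 lay outside the pathway lists. The list of other synthesis enzymes holds 15 genes, and how many of them are among the 4276 was not counted.

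The rest of the pathway was counted from 5 lists. All 15 other synthesis enzymes were higher in mature cells and 14 of 15 in newly formed cells, and 13 were lower in microglia and 12 in vascular cells, with medians of 2.52, 2.31, -2.16 and -2.39 on the log2 scale, against -0.02, 0.10, -0.11 and -0.07 over all genes. Cyp51, which removes a methyl group before Msmo1 does, was higher in mature cells by 3.503 ± 0.193 (edgeR FDR 3.68e-12), and Lss, which closes the sterol ring, by 3.20 ± 0.22 (edgeR FDR 1.24e-10). Of the 6 regulators 3 were higher and 1 lower in mature cells, beside 25.9% of all genes called higher and 21.8% called lower. Insig1, which holds SREBP back in the endoplasmic reticulum, was higher there by 1.71 ± 0.23, whereas Srebf1, the relative of Srebf2 that drives fatty acid synthesis, was higher in astrocytes by 3.22 ± 0.22 and had -0.31 ± 0.25 in mature cells (edgeR FDR 8.28e-11 and 0.337).

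Genes that take cholesterol in or move it out did not all follow the enzymes. Of 7 uptake and trafficking genes tested, 5 were higher and 2 lower in mature cells, beside the same shares of all genes. Lrp1, a receptor for apolipoprotein E, was lower there, with -5.19 ± 0.35. Of 10 genes of efflux, turnover and esterification, 8 were higher in microglia and 4 in astrocytes, beside 29.0% and 19.8% of all genes. Apoe, the main lipoprotein component made in brain, was higher in astrocytes by 5.52 ± 0.22 (edgeR FDR 2.25e-14), and Abca1, which loads cholesterol onto apolipoproteins, was higher by 2.81 in both astrocytes and microglia. Both were lower in mature cells, with log2 differences of -2.90 ± 0.35 and -3.63 ± 0.33. Cyp46a1, which turns cholesterol over in neurons, was higher in mature cells by 2.50 ± 0.34. Of 8 fatty acid genes, 6 were higher and 2 lower in mature cells, beside 25.9% and 21.8% of all genes. Among those higher were Fasn by 2.46 ± 0.18 and Scd1 by 2.80 ± 0.17. Fads1 and Fads2 had their lowest mean levels in mature cells, at 29.9 and 0.362 CPM. In astrocytes 5 fatty acid genes were higher and 1 lower, beside 19.8% and 17.2% of all genes.

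Between conditions there was 1 library each, so no test over replicates could be run and no p-value is given. A gene was called between libraries where its CPM differed at least 1.5-fold with exact 95% Poisson intervals apart, given at least 20 UMIs over both, and these intervals cover counting error only. ULI over control gave 0 calls higher and 12 lower among 37 measured gene and class pairs, beside 9.39% and 12.9% of all pairs of genes and classes. ULC over control gave 8 higher and 12 lower among 36, beside 14.2% and 11.4%. ULI over ULC gave 1 higher and 12 lower among 35, beside 11.2% and 16.5%. The comparisons share libraries and are not independent of each other.

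**Figure D4:**
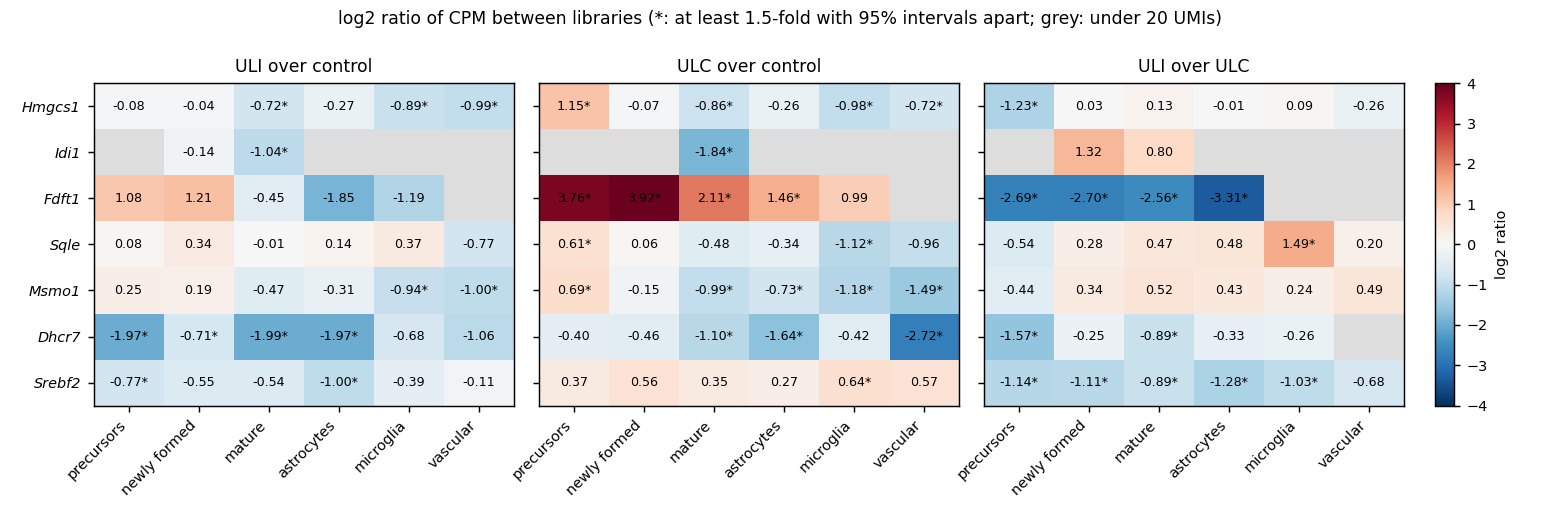
Log2 ratio of CPM for each gene (rows) and class (columns) in ULI over control, ULC over control and ULI over ULC, from -4 in blue to 4 in red; a star marks at least 1.5-fold with 95% intervals apart, and grey marks under 20 UMIs. Dhcr7 had ratios of -1.97 to -1.99 in precursors, mature cells and astrocytes of ULI over control, and Fdft1 had 1.46 to 3.92 in 4 classes of ULC over control.

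Dhcr7 was the gene lower in most classes of ULI. Its log2 ratio of ULI over control was -1.99 in mature cells (95% interval -2.19 to -1.79), -1.97 in precursors (-2.58 to -1.40), -1.97 in astrocytes (-2.77 to -1.25) and -0.71 in newly formed cells (-1.02 to -0.39). These 4 pairs were called, and microglia (-0.68) and vascular cells (-1.06) were not. The newly formed ratio, on 62 control cells, fell short of 1.5-fold in 6 other settings, with -0.13 for the mean over cells, -0.21 with at most 20% mitochondrial UMIs, -0.38 without doublets and 0.22 at resolution 2.0 among them. In ULC over control the ratios of Dhcr7 were -1.10 in mature cells, -1.64 in astrocytes and -2.72 in vascular cells, all called. The vascular ratio rested on 2 UMIs in ULC and 21 in the control, and without 1 control fibroblast (2 and 16 UMIs) it fell below the minimum of 20. Those of newly formed cells (-0.46) and precursors (-0.40) were not called. Astrocytes of ULI and ULC had the higher mitochondrial shares given above, and with at most 20% mitochondrial UMIs per cell the astrocyte ratios over control stayed past 1.5-fold for Dhcr7 in ULI and ULC and for Srebf2 in ULI, whereas Msmo1 in ULC was under 1.5-fold and Srebf2 in ULC was at -0.39, against 0.27 with all cells.

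The difference of Dhcr7 in mature cells was also seen inside single clusters. In the 4 mature clusters with at least 20 cells of both ULI and the control, Dhcr7 had 60.5 CPM in ULI against 188.8 CPM in the control in cluster 1, 71.7 against 162.5 in cluster 9, 56.2 against 224 in cluster 10 and 70.7 against 252 in cluster 15. ULI was thus below the control in each of them, but in cluster 9 the 95% intervals, 49.7 to 100.2 and 92.9 to 263.9 CPM, overlapped. In ULC, Dhcr7 had 105, 143 and 122 CPM in clusters 1, 9 and 12, against 188.8, 162.5 and 332 CPM in the control. The ULC levels of clusters 1 and 9 rested on 9 UMIs each. Their 95% intervals, 48.0 to 199 and 65.4 to 271.5 CPM, overlapped those of the control. In cluster 1 alone the ratio of ULC over control was not called (-0.85, -2.00 to 0.11).

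Hmgcs1 was lower in mature cells of both sides. Its log2 ratio was -0.72 in ULI over control (95% interval -0.75 to -0.70) and -0.86 in ULC over control (-0.90 to -0.82). In each mature cluster with at least 20 cells of the control and of another library, the control had the highest Hmgcs1 level: 3417, 1807 and 4338 CPM in ULI, ULC and control of cluster 1, 3040, 2511 and 3383 CPM in cluster 9 (where the 95% intervals of ULI and the control, 2885 to 3201 and 3029 to 3766, overlapped), 3256 CPM in ULI against 4920 CPM in the control of cluster 10, 4904 against 6306 CPM in cluster 15, and 3277 CPM in ULC against 5442 CPM in the control of cluster 12. In cluster 1 alone the ratio of ULI over control was -0.34 and no longer called, and that of ULC over control was -1.26. When the mature cells of a library were split by depth, Hmgcs1 had 3433 CPM in the deeper and 3566 CPM in the shallower cells of ULI, 3160 and 2991 CPM in those of ULC, and 5750 and 4624 CPM in those of the control. What part depth has in the ratios was not tested. In newly formed cells the Hmgcs1 ratios were -0.04 in ULI over control (-0.11 to 0.04) and -0.07 in ULC over control (-0.15 to 0.01), on 62 control cells. They turned with the processing, to 0.64 and 0.71 with at most 20% mitochondrial UMIs and to 0.22 and 0.26 for the mean over cells.

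**Figure D5:**
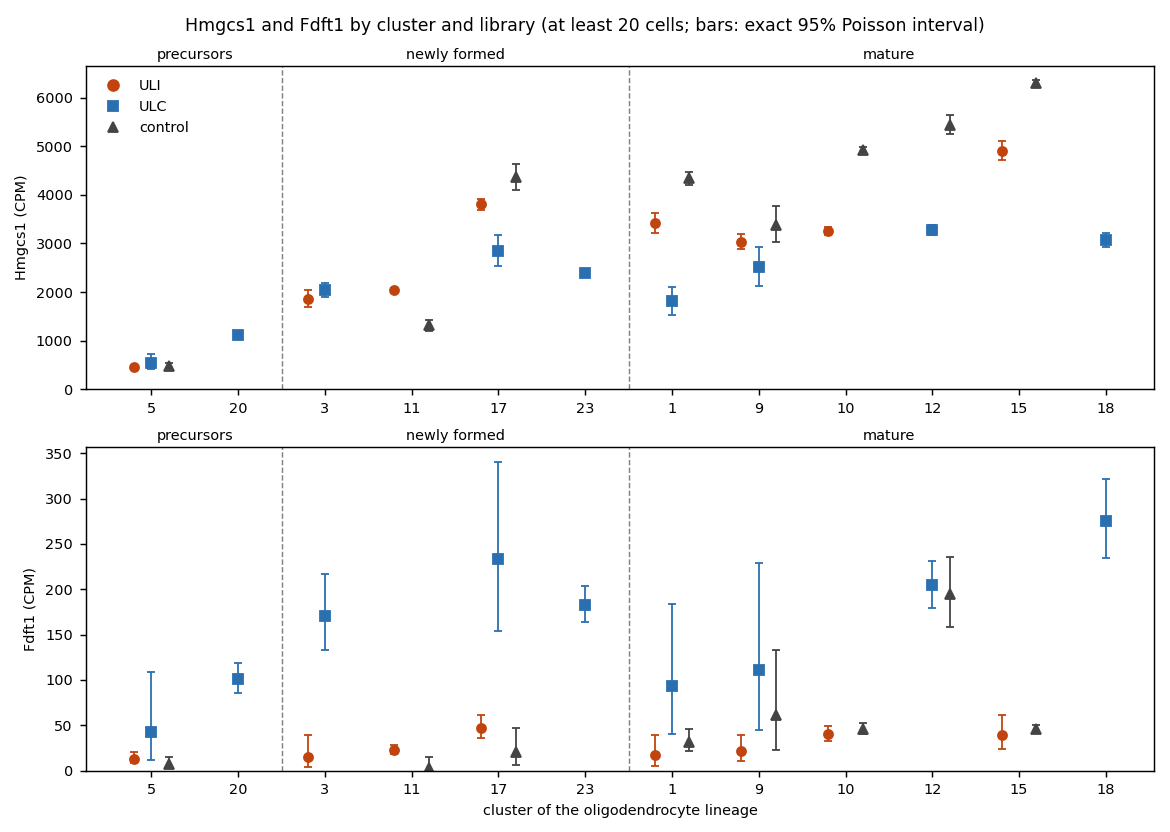
Hmgcs1 (top) and Fdft1 (bottom) in CPM, by cluster of the oligodendrocyte lineage (x axis) and library, for clusters with at least 20 cells of that library, with exact 95% Poisson intervals as bars. Control triangles were above ULI circles and ULC squares for Hmgcs1 in all mature clusters with both, and for Fdft1 the 59 control cells of cluster 12 stood at 194.5 CPM.

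Hmgcs1 was also lower in microglia and vascular cells. In microglia the log2 ratio was -0.89 in ULI over control and -0.98 in ULC over control, and Msmo1 had -0.94 and -1.18, all 4 called. Summed mature markers were 290 and 567 CPM in microglia of ULI and ULC, against 701.5 CPM in the control, and their part in these ratios was not tested. With each cell weighing the same, the Hmgcs1 ratios of microglia were -0.53 and -0.49, under 1.5-fold. In vascular cells Hmgcs1 had -0.99 and -0.72 and Msmo1 -1.003 and -1.49, all called, but 1 control fibroblast of 34275 UMIs held 115 of the 310 Hmgcs1, 28 of the 94 Msmo1 and 18 of the 59 Sqle UMIs of the class. Without that cell Hmgcs1 was at -0.36 in ULI over control and -0.09 in ULC over control, neither called, and Msmo1 stayed called in ULC over control alone, at -1.02. With all fibroblasts left out, Msmo1 was at -0.89 there and not called.

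Msmo1 and Idi1 were lower in mature cells too. Msmo1 had a log2 ratio of -0.99 in ULC over control (-1.08 to -0.91), which was called, and -0.47 in ULI over control, which was not. Idi1 had -1.04 in ULI over control (-1.58 to -0.54) and -1.84 in ULC over control (-2.86 to -0.98), on 36, 11 and 303 UMIs in ULI, ULC and control. In astrocytes Msmo1 had -0.73 in ULC over control, called, and -0.31 in ULI over control, not called. The astrocyte ratio of ULC over control fell short of 1.5-fold in 4 other settings, with -0.39 for the mean over cells. Sqle in mature cells had -0.01 in ULI over control (-0.08 to 0.05) and -0.48 in ULC over control (-0.57 to -0.38), neither called. In microglia Sqle was called lower in ULC over control (-1.12) and higher in ULI over ULC (1.49), on 60, 11 and 115 UMIs in ULI, ULC and control, and with each cell weighing the same these ratios were -0.001 and 0.14.

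In precursors the ULC library stood apart. Hmgcs1 had a log2 ratio of 1.15 in ULC over control, Msmo1 0.69, Sqle 0.61 and Fdft1 3.76, all called, and these were 4 of the 8 calls higher in ULC over control. Cluster 20 held most of these ULC cells. Without it, Hmgcs1 had 552 CPM in ULC against 487 CPM in the control, a ratio of 0.18, Msmo1 had -0.43 and Sqle -0.94, and Fdft1 had 4 and 7 UMIs and was not measured, so none of the 4 stayed called higher. In 6 other settings of cell filters, doublets and clustering, Hmgcs1 had a ratio of 0.25 to 0.40 in ULC over control precursors and Sqle one below 0. Within cluster 5, which held most ULI and control precursors, Dhcr7 had 24.4 CPM in ULI, 42.4 in ULC and 95.8 in the control. The ULC level rested on 4 UMIs (95% interval 11.6 to 109 CPM), and the ratio of ULC over control was not called there (-1.17, -3.08 to 0.23), whereas that of ULI over control was (-1.97).

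Fdft1 differed most between libraries. Its log2 ratio of ULC over control was 3.92 in newly formed cells (95% interval 2.92 to 5.14), 3.76 in precursors, 2.11 in mature cells (1.93 to 2.28) and 1.46 in astrocytes, and that of ULI over ULC was -2.56 to -3.31 in the same 4 classes, all called. The newly formed and precursor ratios rested on 8 and 7 control UMIs. In mature cells the difference was not the same in all clusters: in cluster 12, which held 380 of the 877 ULC mature cells, ULC had 205 CPM and the 59 control cells 194.5 CPM, while the other control mature cells had 44.9 CPM. The 482 genes whose names carry the pseudogene ending -ps summed to 2241, 3462 and 2337 CPM in mature cells of ULI, ULC and control, and to 3325 CPM in the control cells of cluster 12 against 2302 CPM in the other control mature cells. Fdft1 overlaps the exons of Ctsb on the opposite strand over 774 bases, at the 3′ ends of both genes, and whether the counting used strand is not given in the sources used here. Ctsb had 695, 571 and 698 CPM in mature cells of ULI, ULC and control. What part read assignment has in the Fdft1 ratios was not tested.

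Srebf2 was lower in ULI than in ULC in 5 of 6 classes. Its log2 ratio of ULI over ULC was -1.14 in precursors, -1.11 in newly formed cells, -0.89 in mature cells, -1.28 in astrocytes and -1.03 in microglia, all called, and -0.68 in vascular cells, not called. Over control, ULI had -0.77 in precursors and -1.003 in astrocytes, called lower, and -0.11 to -0.55 in the other 4 classes. ULC over control was called in microglia (0.64, under 1.5-fold with at least 500 genes per cell or without doublets), with 0.27 to 0.57 in the other 5 classes. The direction of ULI over ULC turned in the mature cells of cluster 1, with 141 CPM in ULI against 93.3 CPM in ULC, a ratio of 0.60 on 42 and 8 UMIs. In microglia the clusters differed in ULI over control. Cluster 0 had 17.4 CPM in ULI against 52.2 CPM in the control (95% intervals 8.68 to 31.1 and 45.8 to 59.3). Cluster 7, which held most ULI microglia, had 41.25 against 12.8 CPM (31.6 to 53.0 and 5.87 to 24.4), on 61 and 9 UMIs. Cluster 21 had 111 against 97.6 CPM, with overlapping intervals.

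Among the other pathway genes, a pattern like that of Fdft1 and Srebf2, highest in ULC and lowest in ULI, was found in mature cells for Pmvk, with 20.4, 202 and 57.9 CPM in ULI, ULC and control, for Mvd (9.50, 75.4 and 48.4 CPM) and for Mvk (7.06, 49.4 and 25.6 CPM). Pmvk, Mvd and Mvk are the kinases and decarboxylase that act on mevalonate and its products. Cyp51 had 1060 and 903 CPM in mature cells of ULI and ULC, against 1320 CPM in the control. Over the 6 classes, the 15 other enzymes were called higher in 4 and lower in 17 of 72 pairs in ULI over control. By the same rule 9.39% of all pairs of genes and classes were called higher and 12.9% lower. In ULC over control the enzymes were called higher in 19 and lower in 7 of 78 pairs, beside 14.2% and 11.4%. Insig1 in mature cells had 415 and 310 CPM in ULI and ULC, against 347 CPM in the control. Apoe in astrocytes had 1394 and 2103 CPM in ULI and ULC, against 4342 CPM in the control, and Abca1 316 and 232 CPM against 415 CPM.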

How the data were processed

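The file used was 1 table of UMI counts per gene and cell, which the authors made from droplet libraries and deposited without normalization. The submitters' processing notes name CASAVA 1.8, UMI-tools, Seurat and mm10. For the aligner, annotation, cell calling and strand setting, the answer is not given in the sources used here. The records and the study's text name the capture platform differently (BD Rhapsody, Drop-seq, 10X). Cell columns carry running numbers in place of barcode sequences, so barcodes shared between libraries could not be counted. The ULI, ULC and control libraries held 5062, 4998 and 4816 barcodes and, in cells kept, 17290709, 12505491 and 26840359 UMIs.

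Barcodes with fewer than 200 genes were dropped, as were genes seen in fewer than 3 cells, and the rest were scaled to 10000 UMIs, logged, and reduced to 2000 variable genes without 54 sterol and lipid genes, 30 principal components and 20 neighbours (scanpy 1.11.5). Leiden clustering at resolution 1.0 (leidenalg 0.10.2, seed 1) gave 28 clusters, each named by the marker list, out of 21, with the highest score over the median cluster. That score was set after the clusters had been seen, and names rebuilt in this way can differ from the study's. Doublets were kept. The doublet caller marked 0.083%, 0.022% and 0.955% of ULI, ULC and control cells on its own, so for ULI and ULC the top 5% of scores stood in for it in the alternative without doublets.

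UMIs were summed per class and library. Classes were compared with edgeR 4.0.16 (R 4.3.3; TMM, filterByExpr, quasi-likelihood test, library as a term, Benjamini-Hochberg over all genes), checked on simulated counts. The SE of a log2 difference is not given by this test. It was derived as the absolute log2 difference divided by the square root of the test's F statistic. With 3 libraries a paired permutation of 1 value could not go below p = 0.25. Conditions had 1 library each and were compared as CPM with exact Poisson intervals and exact Clopper-Pearson intervals of the ratio, at 95%. A library at 0 was set to a floor of 3 counts. UMIs of 1 cell are not independent draws from the tissue, so intervals and floors cover counting error only.

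The 7 members were all named. Other genes came from 5 pathway lists, as counts per list with a few examples, and the 10 genes most like the members came from a ranking by Pearson's r. Some genes of the lists are not reported here by name. The members and lists were chosen with earlier results of these data known. Alternatives covered scaling, cell filters, doublets, clustering, thresholds, DESeq2 1.42.0 and each library left out. A further 5 alternatives, leaving out or keeping single clusters or 1 cell, were chosen after seeing the data. Positions are from GENCODE vM21 (GRCm38) and promoters from RefSeq (GRCm38.p6).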

Additional observations from a re-analysis of the deposited data

Results flagged for a closer look

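The log2 ratios of Hmgcs1, Sqle and Msmo1 went in opposite directions in different classes of ULC over control, with 1 library per condition, and the difference between classes was not tested. Hmgcs1 had a log2 ratio of 1.145 in precursors, against -0.858 in mature cells, -0.982 in microglia and -0.724 in vascular cells. Msmo1 had 0.688 in precursors, against -0.994 in mature cells, -0.732 in astrocytes, -1.18 in microglia and -1.492 in vascular cells. Sqle had 0.61 in precursors and -1.118 in microglia. In each case precursors were the class called higher. Without cluster 20, which held 257 of the 331 ULC precursors, the precursor ratios were 0.18 for Hmgcs1, -0.43 for Msmo1 and -0.94 for Sqle.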

How the results depend on the processing

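No paired analysis was possible because each condition had 1 library. The totals of calls between classes, gained and lost calls included, were 15 higher and 13 lower, against 14 to 16 and 12 to 14 with each library left out, and 16 and 13 with DESeq2. Between conditions, ULI over control had 0 calls higher, against 2 with the mean over cells, 1 with at least 500 genes per cell, 2 with at most 20% mitochondrial UMIs and 1 at resolution 2.0, and its 12 calls lower became 6 with a 2-fold call. ULC over control had 8 higher, against 5 with a 2-fold call, 4 with at least 500 genes, 5 without doublets and 4 without cluster 20, and its 12 lower became 7 with a 2-fold call. ULI over ULC had 1 higher, against 2 with TMM factors, 4 with the mean over cells, 4 with mature cells of cluster 1 only and 3 without cluster 12. With TMM factors the median log2 ratio of all genes was 0.132 in mature cells of ULI over ULC, against 0.047 without them. In precursors of ULC over control it was 0.075 with TMM factors, against -0.082 without them. The cause was not tested in any of these.

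Values that were called, or came from edgeR, and changed sign were these. In the precursor contrast (log2), Dhcr7 was at 0.023 with no filter, 0.009 without fibroblasts, 0.007 without 1 vascular cell, 0.026 with cluster 1 only, and -0.386 to 0.235 with each library left out. Fdft1 was at -0.422 with at least 500 genes, -0.495 under the mitochondrial limit, -0.548 without doublets, -0.486 and -0.491 at resolutions 0.5 and 2.0, -0.55 with sterol genes in the clustering, -0.592 without cluster 20, and -0.375 to 0.532 with each library left out. Sqle was at -0.098 without cluster 20. With each library left out, Hmgcs1 was at -0.837 to 0.165 and Msmo1 at -0.64 to 0.231 in precursors, and Idi1 at -5.662 to 0.1 in astrocytes. For mature over newly formed cells Srebf2 was at -0.045 with no library term, -0.005 without cluster 20, -0.038 with cluster 1 only and -0.095 to 0.301 with each library left out. In ULC over control, Sqle in precursors was at -0.091 with at least 500 genes, -0.129 under the mitochondrial limit, -0.121 without doublets, -0.146 and -0.164 at resolutions 0.5 and 2.0, -0.109 with sterol genes in the clustering and -0.943 without cluster 20, and Msmo1 there at -0.426 without cluster 20. In ULI over control, Dhcr7 in newly formed cells was at 0.224 at resolution 2.0, where Srebf2, not called, was at 0.06, against 0.212 under the mitochondrial limit. Sqle in astrocytes of ULC over control, not called, was at 0.74 under that limit and Hmgcs1 there at 0.57. In mature cells of cluster 1, Srebf2, not called with all clusters, was at -1.042 in ULC over control, and in ULI over ULC Srebf2 in mature cells of cluster 1 was at 0.599. The other values by gene, class and setting numbered 2646 on the same side, 173 moved, 39 newly past the threshold and 29 no longer past it. Depth limited Idi1 outside the oligodendrocyte lineage and Fdft1 in microglia and vascular cells.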

Other observations

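Outside the 6 classes, Hmgcs1 had 475 and 425 CPM in neurons of ULI and ULC and 419 CPM in those of the control, on 28 control UMIs. Ependymal cells had 346 and 294 CPM in ULI and ULC and 278 CPM in the control, and choroid plexus epithelium 214 and 168 CPM and 215 CPM. Perivascular macrophages, which line vessels and are related to microglia, had 47.7 and 68.5 CPM in ULI and ULC and 159 CPM in the control. Among vascular cells, fibroblasts had 117 and 176 CPM of Hmgcs1 in ULI and ULC, against 844.5 CPM in the control, where 115 of the 129 UMIs came from 1 cell. Inside newly formed cells, Hmgcs1 was higher in cluster 17 than in the others: 3804 CPM against 1861 and 2035 CPM in clusters 3 and 11 of ULI, 2841 CPM against 2042 and 2394 CPM in clusters 3 and 23 of ULC, and 4362 CPM against 1316 CPM in cluster 11 of the control, with no test, since the clusters were made from these cells.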
